A study of Homo sapiens with 4 samples.

Results

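The genes described here build the mitotic spindle and divide the chromosomes. The set held 56 genes, from cyclin B and CDK1 through the kinetochore and the kinesin motors to condensin, and was chosen by function. The choice was made with earlier results of these data known. Of the 56 genes, 55 were measured among 18417 genes in all. The remaining gene, CENPA, which encodes the histone H3 variant of centromeres, was not measured, since its probe set also carries the name of a second gene, and enters only the promoter counts. A gene stands for its probe set, a group of short DNA probes on the array, and where a gene has several, for the one with the highest mean.

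RNA was measured on Affymetrix gene arrays in PC3, a human prostate cancer line grown from a bone metastasis. Cells stably transfected with PDEF, an ETS-family transcription factor of prostate luminal cells encoded by SPDEF (PDEF-PC3, 2 arrays), were compared with control cells (VC-PC3, 2 arrays). The controls are described as carrying an empty vector but are named PC3-SCR in the sample titles. The sources used here do not settle which control it was. All cells grew in the same serum-containing medium. Whether either line was a single clone is not given in the sources used here. Values are log2 array signals as deposited, and a log2 fold change is the PDEF-PC3 mean minus the VC-PC3 mean. A gene is said to have risen or fallen when limma gave an adjusted p under 0.05 over all genes. The sources used here do not state that the 2 arrays of a line were separate cultures, so the p-values rest on array-to-array spread that may be technical.

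Cells enter mitosis when cyclin B and CDK1 become active, which the CDC25 phosphatases permit. Chromosomes are then compacted by condensin, captured by microtubules at kinetochores, and held back by the spindle checkpoint until CDC20 activates the ubiquitin ligase that releases separase. Transcripts of most of these proteins are made in G2 and mitosis and are low in resting cells, so they are widely used as a measure of proliferation. Many of their promoters are kept silent by the DREAM complex and are later activated through B-MYB and FOXM1.

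The label checks bear on every comparison. SPDEF gave 6.85 and 6.73 in the PDEF-PC3 arrays, against 5.99 and 6.06 in the VC-PC3 arrays, a rise of 0.77, or 1.70-fold. CTNNA1 and STAT3, 2 genes that PC3 cells are known to lack, read 9.76 and 9.86 (CTNNA1) and 9.06 and 9.05 (STAT3) in PDEF-PC3, against 4.77 and 4.07 (CTNNA1) and 4.51 and 4.70 (STAT3) in VC-PC3. The PDEF-PC3 arrays thus go against a label of PC3 cells alone, and the effect of PDEF and a difference between the cells themselves cannot be told apart in any result here. As a gauge of background, the highest of 341 olfactory receptor genes reached signals of 5.65 and 5.75 for PDEF-PC3, against 5.94 and 6.01 for VC-PC3. The VC-PC3 signals of SPDEF lay just above that gauge, which leaves the size of its rise inexact. Of 3 epithelial markers, KRT8 and KRT18 were above that gauge in all 4 arrays, while EPCAM was above it in 1 of the PDEF-PC3 arrays and in both VC-PC3 arrays. KRT8 fell by 0.64 and EPCAM by 1.69, while KRT18 missed the threshold. Their summed linear signals were 1147 to 1238 in PDEF-PC3 and 1739 to 1812 in VC-PC3. Of 4 luminal prostate markers listed, 1 was measured, KLK3, which was below the gauge in all 4 arrays. Of 7 fibroblast markers, 1 was above it in both arrays of either group, with summed linear signals of 267 to 291 in PDEF-PC3 and 506 to 580 in VC-PC3, and none of 4 measured leukocyte markers was. Of 4 endothelial markers, KDR alone was above it, in VC-PC3, with summed signals of 80.8 to 83.3 in PDEF-PC3 and 190 to 218 in VC-PC3. The summed signal of 6 measured kidney and neural lineage markers was 2352 to 2621 in PDEF-PC3 and 343 to 353 in VC-PC3. Most of the PDEF-PC3 sum came from NEFM and NEFL, so it is not a measure of the kidney markers. NEFM, NEFL and EYA1 rose, with NEFM at 10.69 and 10.89 in PDEF-PC3 against 4.80 and 5.24 in VC-PC3. NEFL gave 8.92 and 8.95 against 7.08 and 6.96, and alone of the 6 was above the gauge in all 4 arrays. The kidney marker PAX8 fell by 0.83, but was above the gauge in VC-PC3 only. PAX2 was below the gauge in all 4 arrays and LHX1 was above it in 1, and both missed the threshold. The part of these differences in the results below was not tested.

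Most mitosis and spindle genes had higher signals in PDEF-PC3 than in VC-PC3. Of the 55 measured, 36 rose (65.5%) and 6 fell (10.9%), while 13 missed the threshold. Over all genes, 26.7% rose and 24.0% fell. All 55 members had a mean signal at or above the median of all genes, and among the 9214 genes at such levels 38.8% rose and 29.2% fell, 11.7% and 8.65% by at least 2-fold. The median log2 fold change was 0.46 for the members, against 0.08 for genes at or above the median level and -0.05 for all genes. At least 2-fold rises were found for 10 members (8.67% of all genes rose as much) and an at least 2-fold fall for 1 (6.07% of all genes). The changes ran from 1.89 for SMC2 to -1.12 for DLGAP5. In 40 members both PDEF-PC3 arrays lay above both VC-PC3 arrays, where this held for 35.0% of all genes, in 11 both lay below (39.7% of all genes), and in 4 the groups overlapped. Among genes at or above the median level, both lay above in 48.6% and below in 39.1%. Arrays of bulk RNA do not tell a larger share of cells in G2 and mitosis from more RNA per cell. With single arrays omitted in turn, 24 to 28 members were called higher and 3 to 4 lower, the fewest higher ones without PDEF-PC3 replicate 2, while 3 were lower without PDEF-PC3 replicate 1, PDEF-PC3 replicate 2 or VC-PC3 replicate 1.

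**Figure D1:**
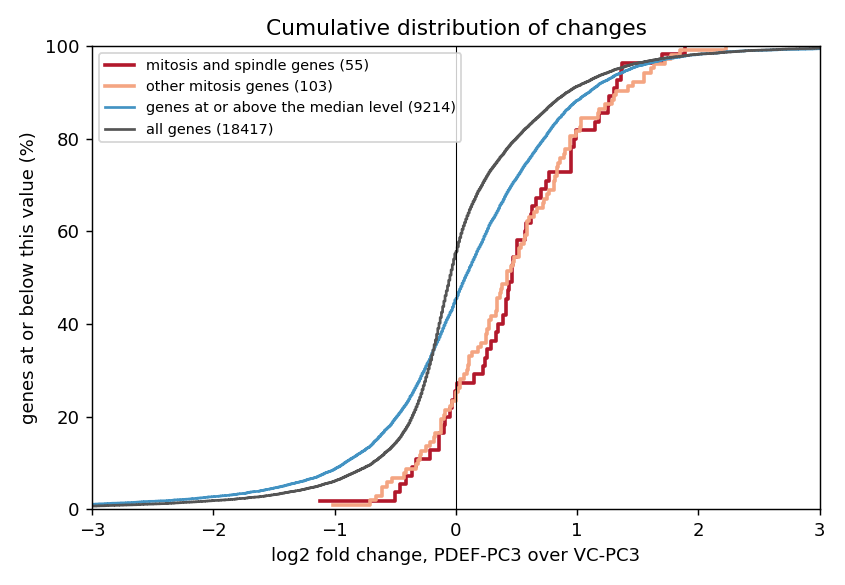
Cumulative share of genes (vertical axis, percent) at or below each log2 fold change of PDEF-PC3 over VC-PC3 (horizontal axis) for the 55 mitosis and spindle genes, 103 other mitosis genes, the 9214 genes at or above the median level and all 18417 genes. The curves of the mitosis genes lie to the right, with a median of 0.46 for the members and of 0.42 for the other mitosis genes, against 0.08 and -0.05 for the larger sets. Both lists of mitosis genes were chosen with earlier results of these data known.

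The promoters of the members share sequence that the choice of genes did not use. The cell cycle genes homology region (CHR) is the site that the LIN54 subunit of the DREAM and B-MYB complexes binds, and was searched as TTTGAA or TTCGAA on both strands. RefSeq promoter windows of assembly GRCh38.p14, each holding 250 bases before the annotated start and 50 after, matched 48 of the 56 genes, with 61 windows since some genes have several starts. AURKA, BUB3, TTK, BIRC5, CENPH, CENPM, TPX2 and FOXM1 had no window in the table used here. A CHR match stood in 39 of 61 member windows (63.9%), against 16.4% of all 35116 windows, and in 37 of 48 genes (77.1%), against 19.5% of all genes with a window. CCAAT, the box bound by NF-Y, was found on either strand in 42 of the 61 windows (68.9%), against 34.6% of all windows. Both stood together in 28 of the 48 genes (58.3%), against 7.85% of all. Of 51 CHR matches, 43 began between 100 bases before and 50 after the start, with a median at position -23, while the 83 CCAAT matches had a median at -85. A CHR match was present in 22 of 31 genes that rose, in 5 of 6 that fell and in 9 of 10 that did not pass the test, so genes of either direction carried it.

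**Figure D2:**
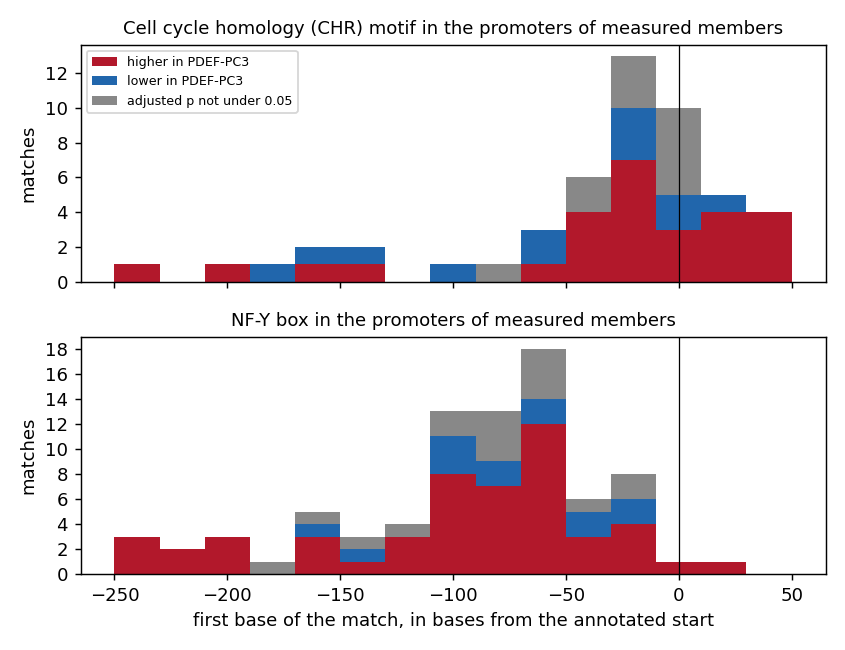
Number of matches (vertical axis) to the CHR motif (upper panel) and the NF-Y box (lower panel) by the position of their first base from the annotated start, in bases (horizontal axis), over the promoter windows of measured members (CENPA, counted in the medians, is not drawn), which may overlap where a gene has several starts, coloured by the call in PDEF-PC3 against VC-PC3. CHR matches gather next to the start (median -23) and NF-Y boxes further upstream (median -85), with 23 of 27 CHR matches of genes that rose and 8 of 12 of genes that fell no more than 100 bases before the start.

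The windows below run from 100 bases before the start to 20 bases from it and show the CHR match, in capitals, in the 4 members with the largest rise and the 4 with the largest fall that have one there. On assembly GRCh38.p14 they lie at chr9:104094209-104094328 (SMC2, plus strand), chr15:90994516-90994635 (PRC1, minus strand), chr10:92593030-92593149 (KIF11, plus strand) and chr4:17810879-17810998 (NCAPG, plus strand) for genes that rose. For genes that fell they lie at chr14:55191566-55191685 (DLGAP5, minus strand), chr1:200620732-200620851 (KIF14, minus strand), chr7:36389762-36389881 (ANLN, plus strand) and chr1:43358881-43359000 (CDC20, plus strand).
SMC2: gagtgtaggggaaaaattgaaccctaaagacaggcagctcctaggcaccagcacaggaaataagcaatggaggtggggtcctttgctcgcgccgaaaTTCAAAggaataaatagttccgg
PRC1: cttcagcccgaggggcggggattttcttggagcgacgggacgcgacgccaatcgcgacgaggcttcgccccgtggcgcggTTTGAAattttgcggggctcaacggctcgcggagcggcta
KIF11: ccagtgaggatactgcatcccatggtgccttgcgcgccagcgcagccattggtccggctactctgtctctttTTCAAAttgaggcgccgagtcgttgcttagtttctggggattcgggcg
NCAPG: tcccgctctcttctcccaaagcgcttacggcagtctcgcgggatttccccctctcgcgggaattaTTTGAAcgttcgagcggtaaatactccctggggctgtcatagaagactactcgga
DLGAP5: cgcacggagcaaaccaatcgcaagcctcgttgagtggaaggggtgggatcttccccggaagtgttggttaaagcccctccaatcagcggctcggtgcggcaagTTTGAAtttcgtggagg
KIF14: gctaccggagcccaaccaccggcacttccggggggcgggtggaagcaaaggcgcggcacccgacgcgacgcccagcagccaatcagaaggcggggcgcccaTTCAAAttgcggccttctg
ANLN: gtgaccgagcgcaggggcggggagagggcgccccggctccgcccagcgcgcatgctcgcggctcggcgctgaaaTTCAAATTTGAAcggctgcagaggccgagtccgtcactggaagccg
CDC20: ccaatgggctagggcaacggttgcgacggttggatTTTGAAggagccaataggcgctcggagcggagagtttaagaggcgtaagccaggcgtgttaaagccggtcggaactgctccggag
The match begins at position -35 in NCAPG and at -20 in PRC1, both of which rose, and at -65 in CDC20, which fell. In ANLN, which fell, 2 matches stand back to back at -26 and -20. A match is a description of the letters and does not show that a factor binds there.

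Among cyclins, CDK1 and the phosphatases that activate it, the cyclins rose while CDK1 itself fell. Of 6 genes, 4 rose and 1 fell, while 1 missed the threshold (26.7% of all genes rose and 24.0% fell, at or above the median level 38.8% and 29.2%). CCNB1, which encodes the cyclin B1 partner of CDK1, gave 10.84 and 10.89 in the PDEF-PC3 arrays, against 10.33 and 10.27 in the VC-PC3 arrays, and rose by 0.57 (SE, the standard error from limma, 0.082; adjusted p = 0.00157). CDK1, the kinase that drives entry into mitosis, gave 9.55 and 9.64 in the PDEF-PC3 arrays and 9.89 and 10.01 in the VC-PC3 arrays, and fell by 0.36 on the log2 scale (SE 0.090, adjusted p = 0.0169). CCNA2, the cyclin of S phase and G2, rose by 0.62, CDC25C by 0.46 and CCNB2 by 0.41. CDC25B, a phosphatase of G2, stood at a log2 fold change of -0.21 (adjusted p = 0.0817), and its adjusted p was 0.0307 after median centring and 0.0242 after quantile normalization. The calls of CDK1 and CCNB2 were lost whichever array was left out, with an adjusted p of 0.0562 to 0.122 for CDK1 and of 0.0508 to 0.109 for CCNB2.

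The kinases of the centrosome and of mitotic entry differed from each other. PLK4, the kinase that starts centriole duplication, gave 9.09 and 9.17 in the PDEF-PC3 arrays, against 7.84 and 7.91 in the VC-PC3 arrays, a log2 difference of 1.26 (SE 0.085, adjusted p = 5.86e-05), or 2.39-fold. PLK1, which acts from mitotic entry to cytokinesis, gave 10.37 and 10.22 in the PDEF-PC3 arrays and 9.91 and 9.82 in the VC-PC3 arrays and rose by 0.43 (SE 0.093, adjusted p = 0.00912). AURKA, the kinase of spindle poles, gave 9.68 and 9.72 for PDEF-PC3 and 9.69 and 9.73 for VC-PC3, which overlap. Its log2 fold change was -0.01 (95% interval -0.21 to 0.19 from limma, adjusted p = 0.932). Whichever array was left out, PLK1 lost its call, with an adjusted p of 0.0510 to 0.0926.

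FOXM1, the transcription factor of G2 and mitotic genes, gave 9.10 and 9.02 in the PDEF-PC3 arrays, against 8.64 and 8.60 in the VC-PC3 arrays. It rose by 0.44 (SE 0.083, adjusted p = 0.00503), with an adjusted p of 0.0556 without PDEF-PC3 replicate 1 and of 0.0517 without VC-PC3 replicate 2.

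Of 5 spindle checkpoint genes, 3 rose and 2 did not pass the test (26.7% of all genes rose, 38.8% at or above the median level). MAD2L1, whose protein MAD2 binds and blocks CDC20, gave 9.99 and 9.99 in the PDEF-PC3 arrays, against 9.20 and 9.31 in the VC-PC3 arrays, and rose by 0.74 (SE 0.085, adjusted p = 0.000567). TTK, the kinase that starts checkpoint signalling, rose by 0.70 and BUB1B, which encodes the checkpoint protein BUBR1, by 0.41. BUB1, a kinase of the outer kinetochore, gave 9.95 and 10.09 in the PDEF-PC3 arrays and 10.07 and 10.07 in the VC-PC3 arrays, so the groups overlapped, and its log2 fold change was -0.05 (95% interval -0.26 to 0.16, adjusted p = 0.673). BUB3, which brings BUB1 to kinetochores, stood at a log2 fold change of 0.26 (adjusted p = 0.0621), and its adjusted p was 0.0335 after quantile normalization. The adjusted p of BUB1B was 0.0615 without PDEF-PC3 replicate 2 and 0.0521 without VC-PC3 replicate 2.

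In the chromosomal passenger complex, which corrects wrong attachments of chromosomes to the spindle, 1 of 4 genes rose, a share near the 26.7% of all genes that rose. AURKB, its kinase, gave 8.79 and 8.74 in the PDEF-PC3 arrays, against 7.88 and 7.72 in the VC-PC3 arrays, and rose by 0.97 (SE 0.092, adjusted p = 0.000249). BIRC5, which encodes survivin, gave 9.16 and 9.14 in the PDEF-PC3 arrays and 9.36 and 9.21 in the VC-PC3 arrays, with a log2 fold change of -0.14 (95% interval -0.35 to 0.08, adjusted p = 0.258). Its other probe set, at background signals of 4.76 to 5.20, had a log2 fold change of 0.11. CDCA8, which encodes borealin, stood at a log2 fold change of 0.22 (adjusted p = 0.0752) and the scaffold gene INCENP of -0.10 (adjusted p = 0.346).

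Genes of anaphase onset moved in opposite directions. ESPL1, which encodes separase, the protease that opens cohesin rings, rose by 0.95 (SE 0.080, adjusted p = 0.000144). CDC20, which activates the anaphase-promoting complex, gave 9.18 and 9.20 in the PDEF-PC3 arrays, against 9.69 and 9.51 in the VC-PC3 arrays, and fell by 0.41 (SE 0.094, adjusted p = 0.0116). PTTG1, which encodes securin, the inhibitor of separase, gave 9.84 and 10.00 in the PDEF-PC3 arrays and 10.25 and 10.24 in the VC-PC3 arrays and fell by 0.33 (SE 0.091, adjusted p = 0.0252). ESPL1 was thus higher in the arrays where the transcript of its inhibitor was lower. Whichever array was left out, PTTG1 lost its call (adjusted p of 0.0530 to 0.132), and the adjusted p of CDC20 was 0.117 without PDEF-PC3 replicate 1, 0.113 without PDEF-PC3 replicate 2 and 0.0625 without VC-PC3 replicate 1.

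Centromere and kinetochore genes rose almost throughout. Of 11 measured, 10 rose and 1, NDC80, missed the threshold, with a median log2 fold change of 0.63. The share that rose was 26.7% of all genes and 38.8% of genes at or above the median level. CENPK, CENPH and CENPI encode subunits of the constitutive network that stays on centromeres through the cell cycle. CENPK gave 8.72 and 8.81 in the PDEF-PC3 arrays, against 7.02 and 7.12 in the VC-PC3 arrays, a log2 fold change of 1.70 (SE 0.088, adjusted p = 2.26e-05), or 3.24-fold. CENPH gave 6.98 and 7.29 in the PDEF-PC3 arrays and 5.98 and 5.58 in the VC-PC3 arrays, a log2 fold change of 1.36 (SE 0.16, adjusted p = 0.000683). The VC-PC3 replicate 2 signal of CENPH lay within the olfactory receptor range, which leaves the size of its change inexact. Of further subunits of this network, CENPM rose by 1.18, CENPN by 0.50 and CENPI by 0.46.

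The outer kinetochore holds the 4-part NDC80 complex, which grips microtubules. SPC25, one of its subunits, gave 8.53 and 8.51 in the PDEF-PC3 arrays, against 7.31 and 7.24 in the VC-PC3 arrays, and rose by 1.25 (SE 0.082, adjusted p = 5.36e-05). Its partners NUF2 and SPC24 rose by 0.63 and 0.39. NDC80, for which the complex is named, gave 7.83 and 7.93 in the PDEF-PC3 arrays and 7.85 and 7.96 in the VC-PC3 arrays, overlapping signals with a log2 fold change of -0.03 (95% interval -0.24 to 0.19, adjusted p = 0.840). CENPE, a kinetochore motor, rose by 0.95 and CENPF, which binds microtubules, by 0.33. With 1 array left out, the highest adjusted p was 0.142 for SPC24, 0.113 for CENPF, 0.0989 for CENPN, 0.0615 for CENPI and 0.0601 for CENPH, with the highest value for CENPH, CENPI, CENPN and CENPF reached without PDEF-PC3 replicate 2 and for SPC24 without PDEF-PC3 replicate 1.

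**Figure D3:**
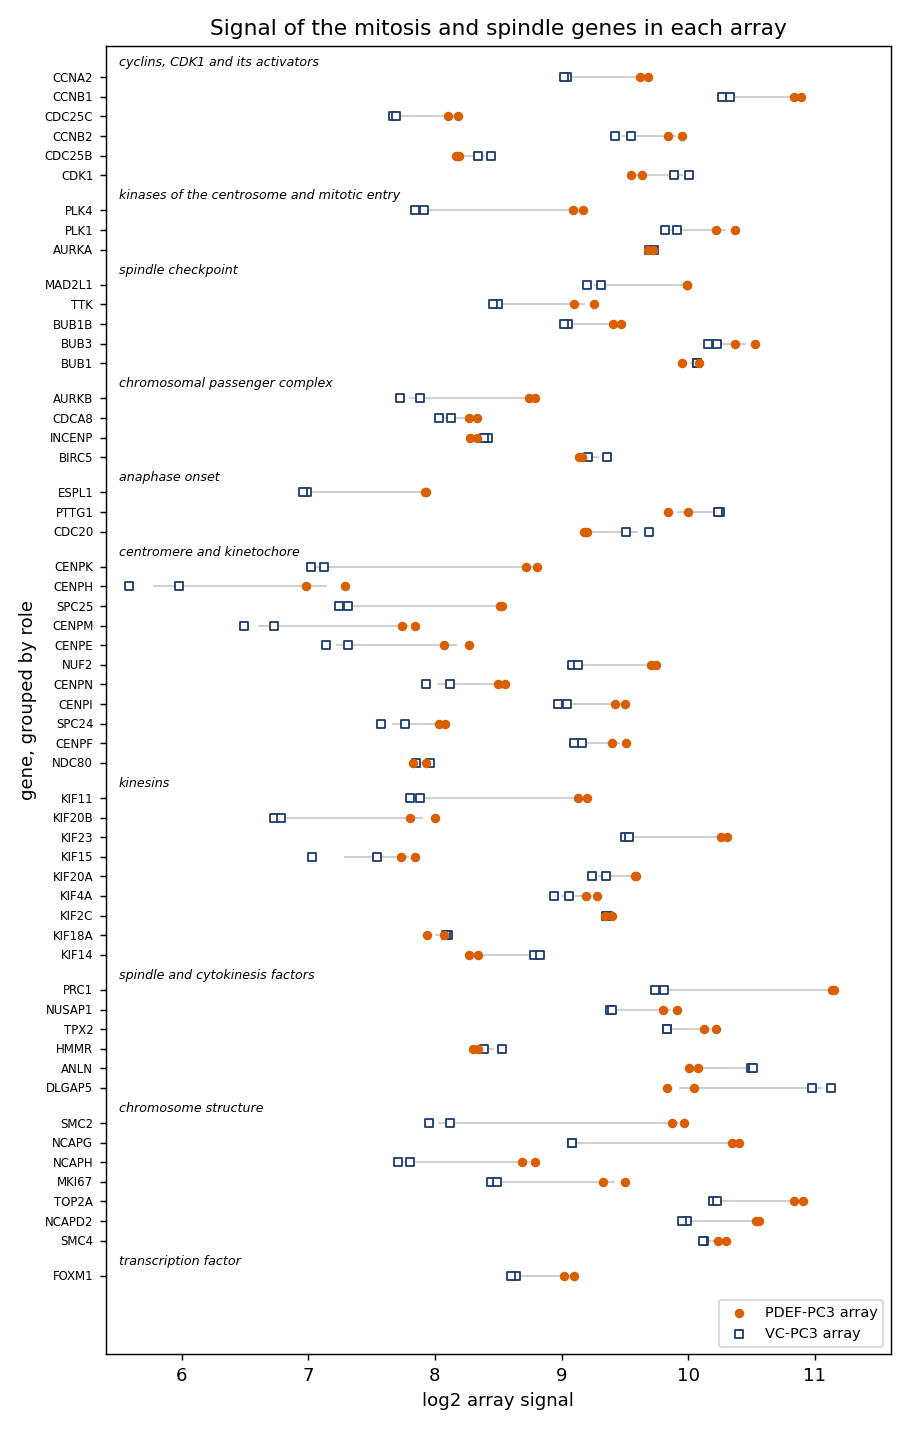
Log2 array signal (horizontal axis) of each measured mitosis and spindle gene (vertical axis, grouped by role) in the PDEF-PC3 arrays (filled circles) and VC-PC3 arrays (open squares), with a grey line between the group means (n = 2 arrays each). CENPK lies at 8.72 and 8.81 in PDEF-PC3 against 7.02 and 7.12 in VC-PC3, while DLGAP5 lies at 9.83 and 10.05 against 10.98 and 11.13.

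Of 9 kinesin genes, which encode motors that slide, shorten or carry microtubules, 5 rose and 1 fell, while 3 missed the threshold. Among all genes 26.7% rose and 24.0% fell, and at or above the median level 38.8% and 29.2%. KIF11, the motor that pushes spindle poles apart, gave 9.13 and 9.20 in the PDEF-PC3 arrays, against 7.80 and 7.88 in the VC-PC3 arrays, a log2 fold change of 1.33 (SE 0.085, adjusted p = 4.79e-05), or 2.51-fold. KIF15, which can share the work of KIF11, rose by 0.50 (SE 0.17, adjusted p = 0.0470), and its VC-PC3 signals of 7.03 and 7.54 differed from each other by more than those of its PDEF-PC3 arrays, 7.73 and 7.84. KIF20B, KIF23 and KIF20A, which are among the motors of the central spindle, where cells cleave, rose by 1.15, 0.77 and 0.29. KIF14, another cytokinesis motor, gave 8.27 and 8.34 in the PDEF-PC3 arrays, against 8.78 and 8.83 in the VC-PC3 arrays, and fell by 0.50 (SE 0.083, adjusted p = 0.00281). The log2 fold changes of KIF4A, KIF2C and KIF18A were 0.24 (adjusted p = 0.0709), 0.01 (adjusted p = 0.932) and -0.09 (adjusted p = 0.430). The calls of KIF15 and KIF20A were lost after median centring (adjusted p = 0.0702 and 0.0688), and that of KIF15 also after quantile normalization (adjusted p = 0.117). KIF20A lost its call whichever array was left out (adjusted p of 0.0547 to 0.136), and KIF15 lost it in each such fit (adjusted p of 0.147 to 0.338) but the one without VC-PC3 replicate 2 (adjusted p = 0.0257).

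Spindle and cytokinesis factors held both a large rise and the largest fall among the 55 members. PRC1, which bundles the microtubules of the central spindle, gave 11.14 and 11.15 in the PDEF-PC3 arrays, against 9.74 and 9.81 in the VC-PC3 arrays, a log2 fold change of 1.37 (SE 0.082, adjusted p = 3.69e-05), or 2.58-fold. DLGAP5, which stabilizes spindle microtubules near chromosomes, gave 9.83 and 10.05 in the PDEF-PC3 arrays and 10.98 and 11.13 in the VC-PC3 arrays, and fell by 1.12 (SE 0.11, adjusted p = 0.000276). ANLN, which encodes the actin-binding protein anillin of the cleavage furrow, gave 10.01 and 10.08 in the PDEF-PC3 arrays and 10.50 and 10.51 in the VC-PC3 arrays, and fell by 0.46 (SE 0.082, adjusted p = 0.00382). DLGAP5, ANLN and KIF14 were the 3 members whose fall passed the threshold in each fit with 1 array left out. NUSAP1 and TPX2, which bind spindle microtubules, rose by 0.47 and 0.35, and HMMR stood at a log2 fold change of -0.14 (adjusted p = 0.238). Whichever array was left out, TPX2 lost its call (adjusted p of 0.0539 to 0.0829), and for NUSAP1 the adjusted p was 0.0529 without PDEF-PC3 replicate 2 and 0.0547 and 0.0508 without VC-PC3 replicates 1 and 2.

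Of 7 genes of chromosome structure, 6 rose and 1 missed the threshold, with a median log2 fold change of 0.95. For comparison, 26.7% of all genes and 38.8% of those at or above the median level rose. SMC2, a core ATPase of condensin, gave 9.87 and 9.97 in the PDEF-PC3 arrays, against 7.95 and 8.12 in the VC-PC3 arrays, a log2 fold change of 1.89 (SE 0.097, adjusted p = 2.18e-05), or 3.69-fold. SMC4, the ATPase that pairs with SMC2, had a log2 fold change of 0.15 (95% interval -0.05 to 0.34, adjusted p = 0.185). Of the other subunits of condensin I, NCAPG gave 10.35 and 10.40 in the PDEF-PC3 arrays and 9.08 and 9.08 in the VC-PC3 arrays, and rose by 1.30 (SE 0.081, adjusted p = 4.33e-05), while NCAPH rose by 0.99 and NCAPD2 by 0.58. TOP2A, the topoisomerase that untangles sister DNA, gave 10.84 and 10.91 in the PDEF-PC3 arrays and 10.20 and 10.23 in the VC-PC3 arrays and rose by 0.66 (SE 0.082, adjusted p = 0.000774). MKI67, which encodes the proliferation marker Ki-67 that coats mitotic chromosomes, gave 9.33 and 9.50 in the PDEF-PC3 arrays and 8.44 and 8.49 in the VC-PC3 arrays and rose by 0.95 (SE 0.094, adjusted p = 0.000283).

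**Figure D4:**
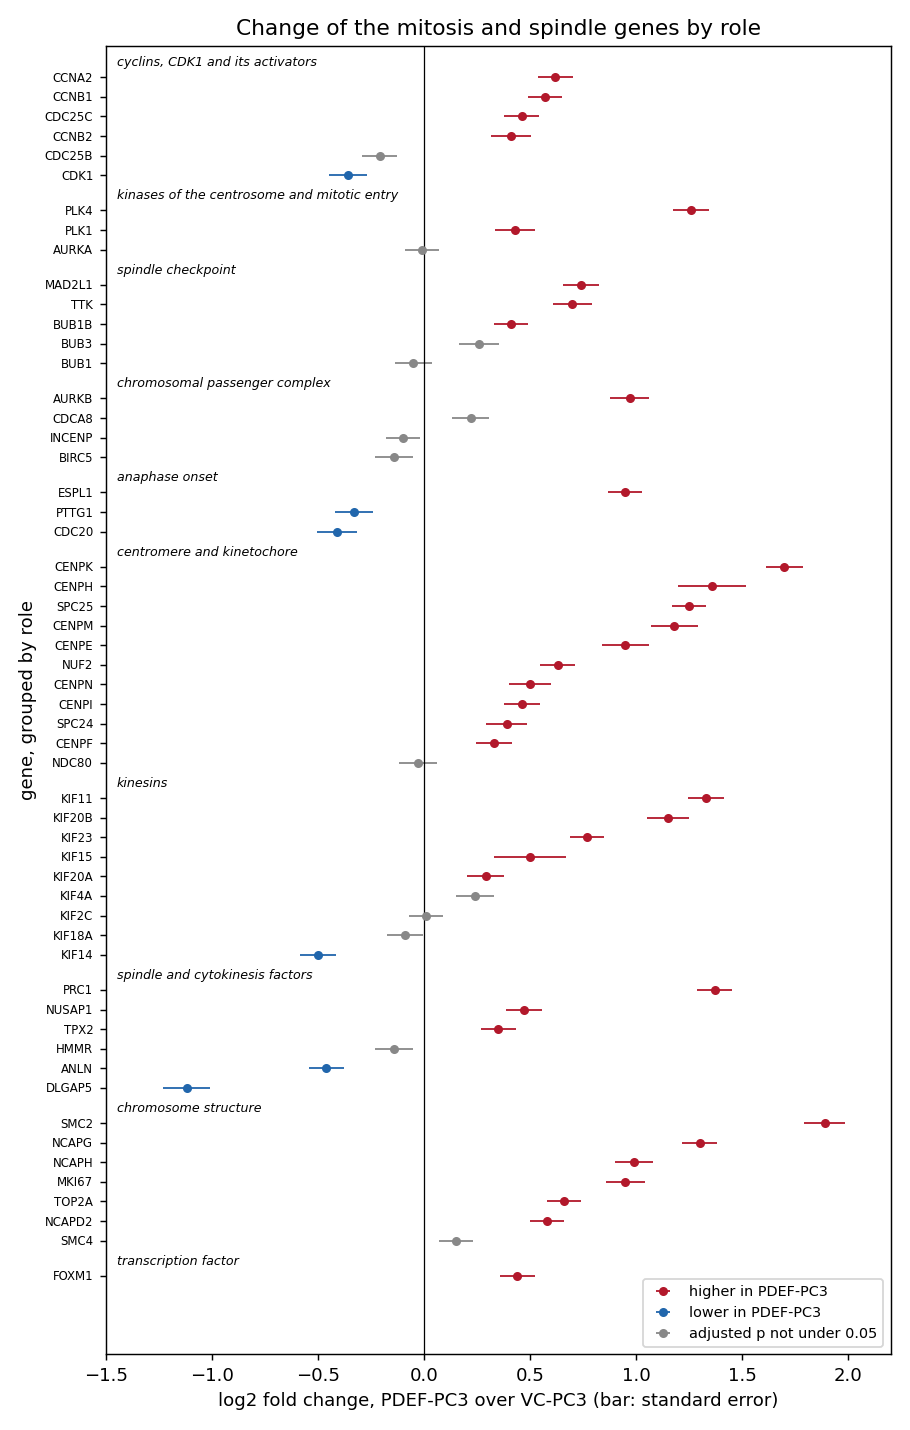
Log2 fold change of PDEF-PC3 over VC-PC3 (horizontal axis) of each measured mitosis and spindle gene (vertical axis, grouped by role), with its standard error from limma as a bar and 2 arrays per group. Kinetochore and chromosome structure genes lie on the higher side up to SMC2 at 1.89, apart from NDC80 at -0.03, while CDK1, PTTG1, CDC20, KIF14, ANLN and DLGAP5 fell.

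Of 12 subunits of the MuvB, B-MYB and DREAM complexes, which act on such promoters, 9 rose and 1 fell, while 2 missed the threshold. The median log2 fold change was 0.88. For comparison, 26.7% of all genes rose and 24.0% fell, and at or above the median level 38.8% and 29.2%. MYBL2, which encodes the activator B-MYB, gave 9.88 and 9.88 in the PDEF-PC3 arrays, against 8.21 and 8.19 in the VC-PC3 arrays, and rose by 1.68 (SE 0.079, adjusted p = 1.65e-05). RBL1, which encodes the repressor p107, gave 8.48 and 8.50 in the PDEF-PC3 arrays and 6.73 and 6.91 in the VC-PC3 arrays, a rise of 1.67. LIN54, LIN9, RBBP4 and LIN52, of the MuvB core shared by activating and silencing complexes, rose by 1.28, 1.11, 0.94 and 0.83. TFDP2 and TFDP1, the DNA-binding partners of E2F factors, rose by 1.89 and 0.70, and RBL2, which encodes p130, by 0.30 (adjusted p = 0.0232, and 0.0555 after median centring). E2F5, a repressive E2F, fell by 0.75, and E2F4 stood at a log2 fold change of -0.23 (adjusted p = 0.100, and 0.0425 after median centring). With 1 array left out, the call was lost for RBL2 whichever array it was (adjusted p up to 0.102), for LIN9 without VC-PC3 replicate 1 (adjusted p = 0.0579), and for LIN52 without PDEF-PC3 replicate 2 or VC-PC3 replicate 2 (adjusted p = 0.0520 and 0.0576).

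Other genes of mitosis, outside the 56, were also listed, from general knowledge and with earlier results of these data known. They are therefore not an independent check of the members. Among the 103 measured of 105 listed, 63 rose (61.2%) and 14 fell (13.6%), while 26 missed the threshold, with a median log2 fold change of 0.42. Over all genes 26.7% rose and 24.0% fell, and at or above the median level 38.8% and 29.2%. CKS2, which encodes a small subunit bound to CDK1, gave 11.29 and 11.29 in the PDEF-PC3 arrays, against 9.12 and 9.01 in the VC-PC3 arrays, and rose by 2.23 (SE 0.085, adjusted p = 7.94e-06), while CDK1 fell. SASS6, which shapes new centrioles beside PLK4, rose by 1.85, ASPM, a protein of spindle poles, by 1.77, and SMC1A, a cohesin subunit, by 1.72. CEP152, the centriole protein that recruits PLK4, fell by 1.01 and the cohesin gene RAD21 fell by 0.66. HJURP, which deposits CENP-A, fell by 0.71 on the log2 scale, and CDC16, of the anaphase-promoting complex, fell by 0.61. Whichever array was left out, CEP152 lost its call (adjusted p of 0.0522 to 0.103), and the adjusted p of CDC16 was 0.0565 without VC-PC3 replicate 1 and 0.0627 without VC-PC3 replicate 2. With single arrays omitted in turn, 5 to 7 of these genes were lower and 45 to 49 higher, with 7 lower without either PDEF-PC3 array, 5 without VC-PC3 replicate 1 and 6 without VC-PC3 replicate 2.

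The change of a member correlated with that of its neighbours on the chromosome, genes that were not chosen for any function. The 55 members lie on 20 chromosomes, and each was set beside the median log2 fold change of the 10 nearest measured genes on either side that were not members, taken from gene order alone. Across members, Pearson's r was 0.66 and Spearman's rho 0.65 (n = 55 genes of the same 4 arrays, some of which share neighbours, so they are not independent). Over all 18388 genes with a position, many of them at low signals, r was 0.29 and rho 0.32. Neighbours in that count could be any gene, and no correlation was computed for genes at or above the median level alone. The values of 0.66 and 0.29 are thus not a like comparison. DLGAP5 lay among the neighbours with the lowest median, -0.76, of which 14 of 20 fell and 1 rose. Neighbours of CDC20 had a median of -0.38, with 11 of 20 lower, and those of KIF14 a median of -0.28, with 8 lower and 0 higher, where 24.0% of all genes fell. Of the other members that fell, CDK1 and PTTG1 each had a neighbour median of -0.17 and ANLN of -0.02. Neighbours of CCNB1, CENPH and KIF11 had a median of 0.49. SMC2, with 1.89 itself, had neighbours at 0.04, and those of SPC25 and NCAPH were at -0.02 and -0.12. In 46 of the 55 members the gene was higher than its neighbour median, which held for 49.9% of all genes and for 56.1% of genes at or above the median level. The neighbour medians of the members had a median of 0.02.

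**Figure D5:**
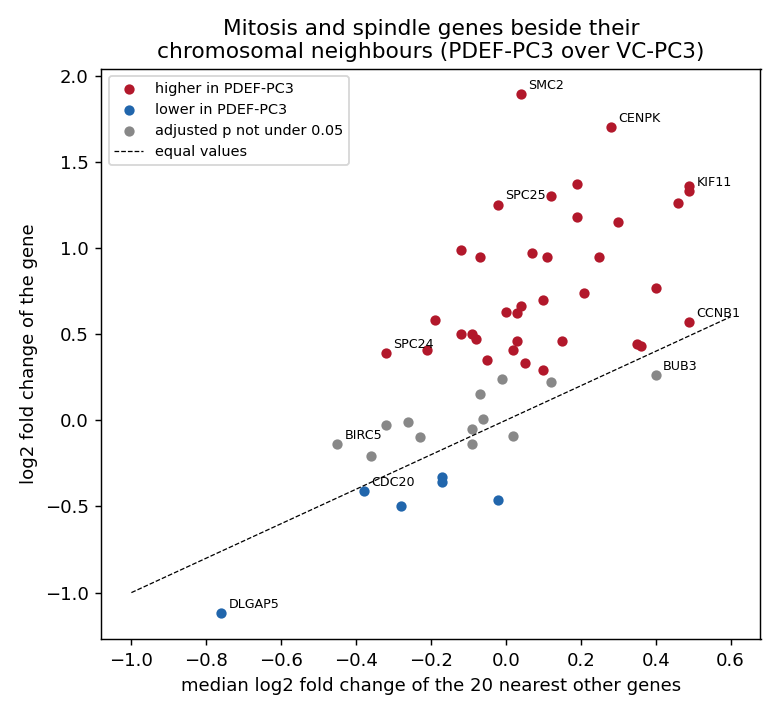
Log2 fold change of each mitosis and spindle gene (vertical axis) against the median log2 fold change of its 20 nearest other genes on the chromosome (horizontal axis), PDEF-PC3 over VC-PC3, coloured by call, with a dashed line where both are equal. Most genes (46 of 55) lie above the line, and DLGAP5 stands at the lower left with -1.12 beside neighbours at -0.76.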

How the data were processed

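Gene arrays of PDEF-PC3 (2 arrays) and VC-PC3 cells (2 arrays) were compared. The deposited values are log2 signals of 33297 probe sets, for which the submitters' processing notes name Transcriptome Analysis Console. What background correction, summarization or scaling the authors chose in it, and its version, is not given in the sources used here. Logarithms to base 2 were assumed because the values span a range usual for them. Array medians lay between 5.41 and 5.46, so the values were used as deposited. No array depth exists, and the number of arrays limits the precision: with 2 arrays a group, the smallest two-sided exact permutation p is 0.333.

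Names came from the platform annotation, with symbols updated from the GRCh38.p14 gene table, which held 99.8% of the single-gene entries. The 19460 probe sets with 1 symbol gave 18417 genes. The 1754 with several symbols and the 12083 unnamed here were not used. No filter on low signals was applied. Genes were tested with limma 3.58.1 in R 4.3.3 (lmFit and eBayes, 2 residual and 4.23 prior degrees of freedom), with Benjamini-Hochberg adjustment across the whole table. The procedure was run on simulated data with independent noise and few changed genes. That setting differs from these arrays, where many genes were called, so it does not show how far the calls here hold. Alternatives were 2 other scalings, the replicate number as a block, a filter on level, the mean of probe sets, a variance trend, and each array left out.

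The members and lists were chosen with earlier results of these data known, and memberships of the other lists come from general knowledge. Values per array were given for the 8 members with the largest rise, the called members that fell, and 14 measured key members. Of other mitosis genes, the 4 with the largest change in each direction were named. Promoter sequences are from RefSeq.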

Additional observations from a re-analysis of the deposited data

How the results depend on the processing

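No called member changed direction under the alternatives run, and 26 of the 42 called members (23 higher, 3 lower) passed the threshold in each of them, while 38 did so in each alternative that kept all 4 arrays. After median centring the median log2 fold change was 0.39 for the members and 0.35 for the other mitosis genes, and after quantile normalization it was 0.35 for the other mitosis genes, while median centring lowered each log2 fold change by 0.07. Regulators of the mitotic programme that fell numbered 2 in place of 1 after median centring, after quantile normalization, among genes at or above the median level and with a variance trend. With the replicate number as a block, 33 members were higher and 5 lower, in place of 36 and 6. Deviations of the arrays numbered 1 correlated at 0.022. The sources used here do not say whether a number is a shared culture or day, and this correlation alone cannot decide it. Members not called reversed sign near 0. AURKA had -0.03 to 0.01 with 1 array left out, 0.01 without PDEF-PC3 replicate 1 or VC-PC3 replicate 2. NDC80 had 0.03 without either of these arrays and -0.08 without either of the other arrays. BUB1 had 0.03 after quantile normalization and -0.12 to 0.02 with 1 array left out. KIF2C had -0.06 after median centring, -0.02 after quantile normalization and -0.02 to 0.04 with 1 array left out. LIN37, a regulator that did not pass the test, had -0.03 after quantile normalization.

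With 1 array left out at a time, the lone array of a group being assumed to vary like the others, the members numbered 24 to 28 higher and 3 to 4 lower with a median of 0.45 to 0.48. The other mitosis genes numbered 45 to 49 higher and 5 to 7 lower with a median of 0.43 to 0.47, and all genes numbered 3010 to 3635 higher and 2326 to 2856 lower. These fits rest on fewer arrays.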

Other observations

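Cohesin, the ring that holds sister chromatids together and was not among the 56 genes, changed unevenly between its subunits, which were singled out after their values were seen. Of 15 cohesin and condensin genes in the wider mitosis list, 10 rose and 2 fell. Over all genes 26.7% rose and 24.0% fell, and at or above the median level 38.8% and 29.2%. The ATPase genes SMC1A and SMC3 rose by 1.72 and 1.42, and STAG2, which encodes a subunit that joins the ring, gave 10.53 and 10.54 in the PDEF-PC3 arrays, against 9.28 and 9.34 in the VC-PC3 arrays, a rise of 1.23. RAD21, the subunit that closes the ring and is cut by separase, gave 10.83 and 10.74 in the PDEF-PC3 arrays and 11.39 and 11.49 in the VC-PC3 arrays, and fell by 0.66. ESCO2, which encodes an acetyltransferase that makes cohesion firm, rose by 1.55, with VC-PC3 signals of 5.66 and 5.76 within the olfactory receptor range, which leaves the size of its change inexact. Of 14 genes of mitotic entry outside the 56, 12 rose and 0 fell (limma, adjusted p under 0.05). The shares to set beside this are the same, of all genes and of genes at or above the median level. MASTL, singled out likewise, the kinase that restrains the phosphatase opposing CDK1, rose by 1.63.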
